A study of Mus musculus with 12 samples.

Results

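The p53 target genes described here are Cdkn1a, Ccng1, Zmat3, Mdm2, Bbc3, Bax, Perp, Phlda3, Trp53inp1 and Eda2r. They were found by their symbols as 10 of the 24627 genes in the count files. Each of the 10 had at least 1 CPM (counts scaled to the size of the library) in at least 6 of the 12 libraries, the filter that left 13191 genes for testing. RNA levels of mouse embryonic stem (ES) cells at day 2 of differentiation by LIF withdrawal were read as counts per gene. All cells were of the Xist-TetOP system in J1 XY ES cells, in which doxycycline (DOX) drives Xist from a TetO promoter at its own locus on the single X chromosome. The Xist FL line carries full-length Xist, the Xist ΔB+C line lacks the B and C repeats and was made from this system by CRISPR/Cas9 editing, and the Xist ΔA line lacks the A repeat and came from earlier work (below FL, ΔB+C and ΔA). Each line was grown without DOX (noDOX) or with DOX at 1.5 µg/ml for the 2 days, with 2 replicates in each of the 6 groups, so that all groups share the genetic background, the TetO promoter and the differentiation medium. Each line is a single cell line, and not every cell of a line responds to DOX, so a change in all cells and a change in a share of cells cannot be told apart. By the authors' RNA FISH counts, the share of induced cells was higher in both DOX replicates of ΔB+C than in those of FL. The part of this share in the members' changes was not tested.

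The transcription factor p53, encoded by Trp53, is stabilised by DNA damage and other stress, and binds response elements near its target genes. Some of its targets stop the cell cycle, some lead to cell death, and some, such as Mdm2, act back on p53 itself. In mouse ES cells p53 is abundant, and its activity is known to bear on genome stability and on exit from self-renewal. Cdkn1a encodes p21, an inhibitor of cyclin-dependent kinases. Ccng1 encodes cyclin G1, and Zmat3 an RNA-binding zinc finger protein. Mdm2 encodes the ubiquitin ligase that marks p53 for degradation. Bbc3 encodes PUMA and Bax a pore-forming protein, both of the BCL2 family. Perp encodes a membrane protein of desmosomes, Phlda3 an inhibitor of AKT, Trp53inp1 a nuclear protein that acts with p53, and Eda2r a receptor for ectodysplasin A2.

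Promoter stretches of 4 members are shown because p53 acts through response elements, and these 4 hold a match to at least a part of one. RefSeq promoter windows on GRCm38.p6 (250 bases before to 50 bases after a start) were held for 7 of the 10 members, all but Trp53inp1, Zmat3 and Perp. The p53 half-site consensus, which reads the same on both strands, was found in 4 of their 10 windows and in 8.36% of all 32851 windows of the same length. Cdkn1a had a pair of half-sites in its window at chr17:29090729-29091028, 73 and 51 bases before that start and separated by 12 bases. Its other window, at chr17:29093519-29093818, held 0. A pair with a spacer of at most 13 bases was present in 0.0731% of all windows. Only exact matches to the consensus were counted. The stretches below read 5′ to 3′ on the gene's strand, with half-sites in capitals, from chr17:29090866-29090977 (+), chr10:117710895-117710984 (−), chr11:40755422-40755511 (−) and chr7:45467050-45467139 (−). These are matches of letters in a window and not measured binding.
Cdkn1a: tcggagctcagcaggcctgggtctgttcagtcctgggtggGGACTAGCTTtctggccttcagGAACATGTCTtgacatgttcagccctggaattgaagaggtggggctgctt
Mdm2: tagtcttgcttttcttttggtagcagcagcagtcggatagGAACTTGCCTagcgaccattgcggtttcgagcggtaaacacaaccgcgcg
Ccng1: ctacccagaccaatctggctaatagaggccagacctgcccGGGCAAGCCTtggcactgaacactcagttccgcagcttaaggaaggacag
Bax: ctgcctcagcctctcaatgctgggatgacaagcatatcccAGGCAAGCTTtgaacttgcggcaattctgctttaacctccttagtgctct

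Total counts per library ranged from 31337490 to 41240470. Xist, the induced gene, read between 2.48 and 8.27 CPM in the 6 noDOX libraries and between 570.1 and 1791 CPM in the 6 DOX libraries, so that every DOX library stood above every noDOX library. In each of the 3 lines the rise of Xist passed the test (log2 fold change 8.34 ± 0.29 in FL, 9.19 ± 0.30 in ΔB+C and 6.47 ± 0.26 in ΔA, SE, n = 2 per group). The median log2 fold change of X-linked genes with DOX was −0.85 in FL, −0.78 in ΔB+C and −0.14 in ΔA. The ES cell markers summed to between 2210 and 3860 CPM. The DOX replicate 2 library of ΔB+C was made by a low-input method from 100 ng of RNA, against 1 µg for the others, and the calls in ΔB+C of members and of named genes are given with and without it. Libraries of the same replicate number deviated together in all 15 pairs of groups, so results are also given from a fit with the replicate number as a block. Values below are in the order of replicates 1 and 2, fold changes are DOX over noDOX, and adjusted p-values are from edgeR's quasi-likelihood test with Benjamini-Hochberg adjustment over all tested genes.

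In the fit of group means, no member passed an adjusted p of 0.05 with DOX in any line. At an unadjusted p under 0.05, 1 member was higher in FL, 1 in ΔB+C and 0 in ΔA, beside 708, 1069 and 32 of all 13191 tested genes. DESeq2 called 0, 1 and 0 members, and its calls over all genes are not set beside its counts in this report. At an adjusted p under 0.05 the fit of group means called 1.24% of all tested genes in FL, 2.94% in ΔB+C and 0.00758% in ΔA. With the replicate block, Mdm2 rose in FL, and 6 members rose in ΔB+C: Mdm2, Perp, Trp53inp1, Eda2r, Cdkn1a and Zmat3. None fell in these lines, and none passed in ΔA. The blocked fit called 13.9% of all tested genes in FL (5.72% higher), 21.9% in ΔB+C (9.89% higher) and 0.0227% in ΔA. The calls in ΔB+C other than that of Mdm2 did not hold without the low-input library, in a fit with 1 library in the DOX group. That fit also called a smaller share of all tested genes than the fit with all libraries. The blocked log2 fold changes there were 0.94 for Mdm2, 0.65 for Perp, 0.48 for Trp53inp1, 0.41 for Eda2r, 0.21 for Cdkn1a and 0.25 for Zmat3. The median log2 fold change of the 10 members was 0.23 in FL, 0.30 in ΔB+C and −0.15 in ΔA, against −0.01, 0.00 and 0.00 over all tested genes. Without the block these medians moved with single libraries. In FL the median was −0.027 without noDOX replicate 2, 0.012 without DOX replicate 1 and 0.451 without noDOX replicate 1. In ΔB+C it was 0.094 without noDOX replicate 2, 0.163 without DOX replicate 1 and 0.562 without noDOX replicate 1. In ΔA it was −0.396 without noDOX replicate 2, −0.391 without DOX replicate 1, 0.024 without DOX replicate 2 and 0.091 without noDOX replicate 1.

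Cell type markers were read in the same libraries. The 6 early differentiation markers, led by Dnmt3b and with none at a mean of 0, summed to 1470 and 1700 CPM without DOX and 1180 and 1370 CPM with DOX in FL, and to 1400 and 1460 CPM, then 1000 and 973 CPM in ΔB+C. In ΔA they summed to 1780 and 1450 CPM, then 1760 and 1410 CPM. These sums were mostly Dnmt3b, at a mean of 1200 CPM, and do not show the other markers. Without DOX, T read 154 and 93.1 CPM in FL and 15.6 and 10.9 CPM in ΔA. Mixl1 and Eomes were also lower in ΔA than in FL in both replicates, Otx2 was higher, and Fgf5 and Dnmt3b were mixed. With DOX each of the 6 fell in both replicates of FL and ΔB+C. The 6 ES cell markers summed to 2210 and 2720 CPM, then 2580 and 3200 CPM in FL, to 2220 and 2990 CPM, then 2300 and 3320 CPM in ΔB+C, and to 2700 and 3620 CPM, then 2890 and 3860 CPM in ΔA. Esrrb, one of these, read 21.8 and 26.4 CPM, then 51.3 and 60.3 CPM in FL, and 18.1 and 32.1 CPM, then 66 and 118 CPM in ΔB+C. Its values in ΔA were 33.7 and 109 CPM, then 24.6 and 113 CPM. Zfp42, another, read 92.8 and 140 CPM, then 190 and 249 CPM in FL, 82.4 and 150 CPM, then 169 and 330 CPM in ΔB+C, and 70.4 and 182 CPM, then 68.7 and 211 CPM in ΔA. Both genes were chosen after their values were seen, and some of the other ES cell markers moved otherwise. In FL Nanog read 143 and 203 CPM, then 120 and 141 CPM, and Pou5f1 1330 and 1480 CPM, then 1320 and 1470 CPM. In ΔB+C Nanog read 122 and 132 CPM, then 112 and 124 CPM, and Pou5f1 1370 and 1660 CPM, then 1150 and 1480 CPM. Sox2 rose in both replicates of FL and ΔB+C, and Dppa5a rose in FL and was mixed in ΔB+C. The 6 primitive endoderm markers summed to 25.1 and 21 CPM, then 25.7 and 32.5 CPM in FL, and to 38.9 and 27.6 CPM, then 53.7 and 40.7 CPM in ΔB+C. In ΔA they summed to 28.7 and 29.9 CPM, then 26.5 and 24 CPM. The part of these differences in the members' changes was not tested.

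**Figure D1:**
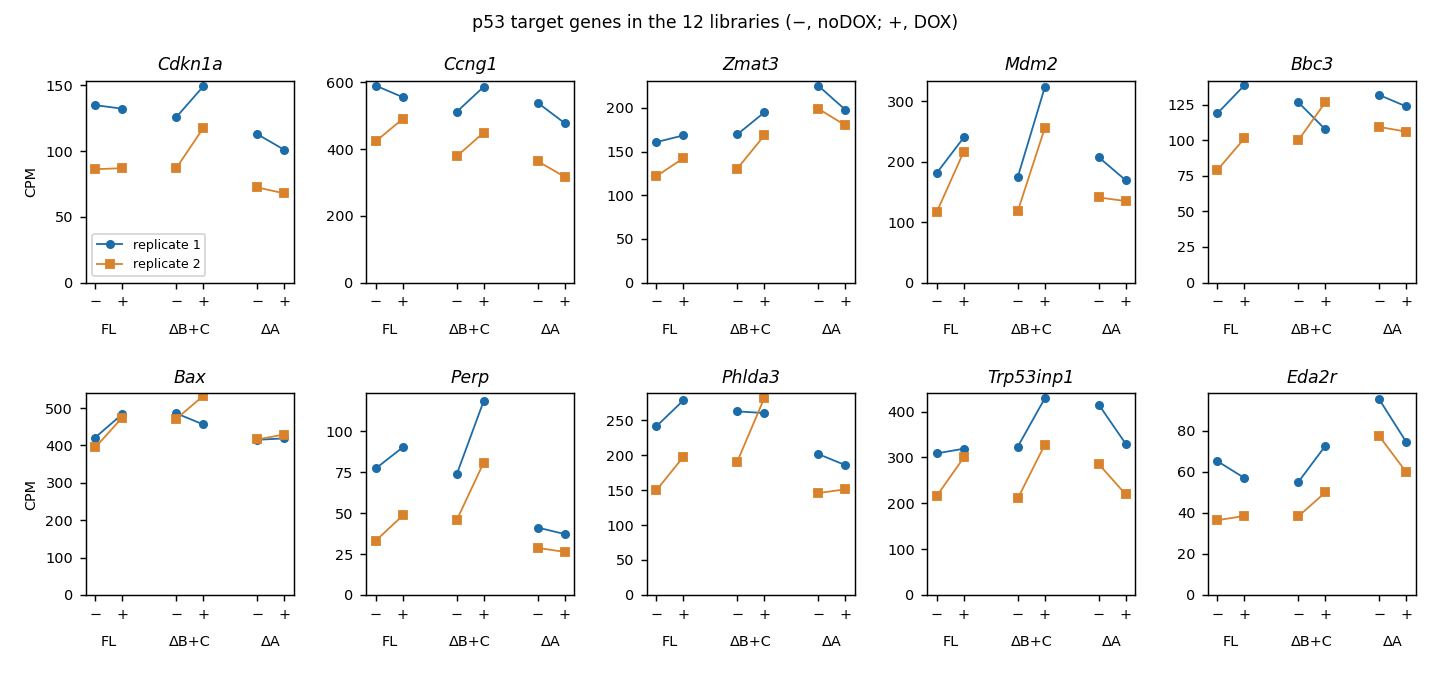
Level of each member in CPM (vertical axes, from 0) in the 12 libraries, by line and by treatment (− for noDOX, + for DOX), with a line joining the noDOX and DOX libraries of the same replicate number. Both lines for Mdm2 rise in FL and ΔB+C, from 117 to 217 CPM in replicate 2 of FL, and replicate 2 lies below replicate 1 in most panels.

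Mdm2, the member that acts back on p53, had the largest log2 fold change of the 10 members in FL and in ΔB+C. In FL, Mdm2 read 182 and 117 CPM without DOX and 240.3 and 217 CPM with DOX. The ΔB+C libraries gave 175 and 118 CPM without DOX and 323 and 256 CPM with DOX. Those of ΔA gave 207 and 141 CPM, then 169 and 135 CPM. In the first 2 lines both DOX libraries lay above both noDOX libraries, while in ΔA the ranges overlapped and each DOX library was below its noDOX partner. The log2 fold change was 0.61 ± 0.27 (SE, n = 2 per group, adjusted p = 0.372) in FL and 0.98 ± 0.27 (adjusted p = 0.0954) in ΔB+C. With the block it was 0.65 ± 0.11 (adjusted p = 0.00283) and 1.00 ± 0.11 (adjusted p = 0.00016), and in ΔA −0.18 ± 0.11 (adjusted p = 0.943). Without the low-input library, the blocked value in ΔB+C was 0.94 ± 0.13 (adjusted p = 0.00629). Leaving out each of the 4 libraries of the line in turn kept Mdm2 past the threshold in 4 of 4 blocked fits in FL, with log2 fold changes of 0.48 to 0.81, and in 4 of 4 in ΔB+C, with 0.92 to 1.08.

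Cdkn1a, the p21 gene, passed in ΔB+C with the block and not in FL. FL libraries read 135 and 86.2 CPM without DOX and 132 and 87.0 CPM with DOX. In ΔB+C the values were 126 and 86.9 CPM, then 149 and 117 CPM. ΔA libraries had 113 and 72.4 CPM, then 101 and 67.9 CPM. The ranges overlapped in each line, and replicate 2 was lower than replicate 1 in all 6 groups. With the block, the log2 fold change of Cdkn1a was −0.01 ± 0.08 in FL (adjusted p = 0.951), 0.34 ± 0.08 in ΔB+C (adjusted p = 0.0108) and −0.13 ± 0.08 in ΔA (adjusted p = 0.943). The value in ΔB+C without the low-input library was 0.21 ± 0.07 (adjusted p = 0.0873). The annotation lists AC167363.2 on the opposite strand over 7.68% of the exon bases of Cdkn1a, and the counting used no stated strand setting, so reads of the 2 cannot be told apart there.

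Ccng1, the cyclin G1 gene, did not pass in any line in either fit. Its values in FL were 590.4 and 423 CPM without DOX and 556 and 491 CPM with DOX. In ΔB+C they were 512 and 379 CPM, then 587 and 450.0 CPM. In ΔA they were 539 and 364 CPM, then 478 and 317 CPM. Ranges overlapped in every line, and the blocked log2 fold changes of 0.07 ± 0.09, 0.22 ± 0.09 and −0.19 ± 0.09 had adjusted p-values of 0.649, 0.0981 and 0.943. The value in ΔB+C was 0.19 ± 0.11 without the low-input library (adjusted p = 0.316).

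For Zmat3, FL libraries gave 161 and 122 CPM without DOX and 169 and 142 CPM with DOX. The ΔB+C values were 170 and 131 CPM, then 195 and 169 CPM. The ΔA libraries had 226 and 199 CPM, then 198 and 180.3 CPM. With the block Zmat3 rose in ΔB+C by a log2 fold change of 0.28 ± 0.08 (adjusted p = 0.0222), and the value without the low-input library was 0.25 ± 0.09 (adjusted p = 0.109). The ranges of DOX and noDOX libraries overlapped in FL and ΔB+C, and in ΔA the lower noDOX library was above the higher DOX library.

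Of the members tied to cell death, Bbc3 and Bax did not pass in any line in either fit. Bbc3 read 119 and 79.0 CPM, then 139 and 101 CPM in FL, and 132 and 109 CPM, then 124 and 106 CPM in ΔA. In ΔB+C it had 127 and 99.9 CPM without DOX and 108 and 127 CPM with DOX. That was the one group in which Bbc3 was higher in replicate 2 than in replicate 1, and the blocked log2 fold change there was 0.07 ± 0.16 with the low-input library and −0.25 ± 0.11 without it. For Bax, the values were 421 and 394 CPM, then 484 and 474 CPM in FL, and 486 and 471 CPM, then 456 and 532 CPM in ΔB+C. ΔA had 415 and 416 CPM, then 419 and 429 CPM. Both DOX libraries of FL exceeded both noDOX libraries, and the log2 fold change of Bax there was 0.23 ± 0.09 (unadjusted p = 0.0247, adjusted p = 0.274). Bax shares 12.2% of its exon bases with Gm45808 in the annotation.

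Perp, Phlda3 and Trp53inp1 were each higher with DOX in both replicates of FL. Perp read 77.3 and 33.1 CPM, then 90.2 and 48.5 CPM in FL, and 73.7 and 45.7 CPM, then 119 and 80.9 CPM in ΔB+C. In ΔA it read 41.2 and 28.7 CPM, then 37.2 and 26.3 CPM. The blocked log2 fold change of Perp in ΔB+C was 0.76 ± 0.16 (adjusted p = 0.0103), or 0.65 ± 0.20 without the low-input library (adjusted p = 0.0976), and in FL it was 0.36 ± 0.16 (adjusted p = 0.157). In ΔB+C the 2 DOX libraries lay above both noDOX libraries, and in FL the ranges overlapped.

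Phlda3 gave 241 and 149.6 CPM, then 278 and 197 CPM in FL, and 202 and 146 CPM, then 186 and 151 CPM in ΔA. In ΔB+C the noDOX values were 263 and 191 CPM and the DOX values 260.3 and 282 CPM. Here too the low-input library was the one replicate 2 above its replicate 1. The blocked log2 fold change of Phlda3 was 0.30 ± 0.16 in FL and 0.29 ± 0.16 in ΔB+C, and neither passed (adjusted p = 0.239 and 0.210). Without the low-input library the value of Phlda3 in ΔB+C was −0.02 ± 0.10.

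Trp53inp1 had 309 and 216 CPM, then 319 and 299.9 CPM in FL. In ΔB+C the values were 323 and 210.5 CPM, then 429 and 328 CPM. In ΔA they were 415 and 285 CPM, then 329.7 and 219 CPM, lower with DOX in both pairs. With the block the log2 fold change was 0.52 ± 0.11 in ΔB+C (adjusted p = 0.00797), 0.27 ± 0.11 in FL (adjusted p = 0.126) and −0.36 ± 0.11 in ΔA (adjusted p = 0.869). It was 0.48 ± 0.15 in ΔB+C without the low-input library (adjusted p = 0.0775). Only the ΔB+C DOX libraries were both above both noDOX libraries of their line.

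**Figure D2:**
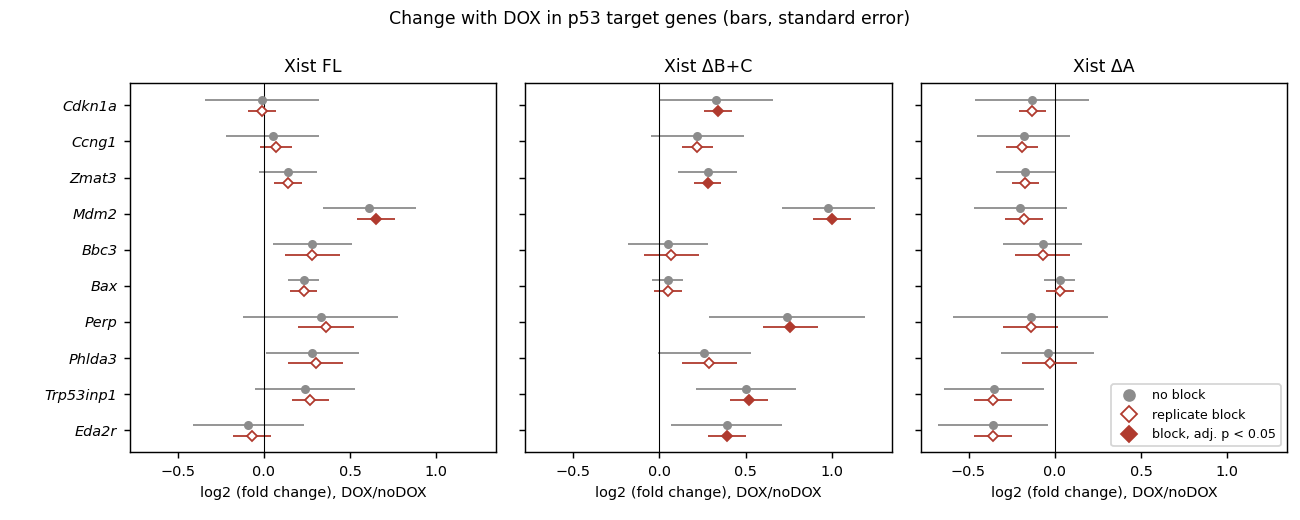
Log2 fold change with DOX over noDOX (horizontal axis, bars show the standard error) of the 10 members in each line, without the replicate block (grey circles) and with it (diamonds, filled where the adjusted p was under 0.05). Mdm2 is the one filled diamond in FL, 6 are filled in ΔB+C, and none are filled in ΔA.

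Eda2r is the one X-linked member (chromosome X, 97333840 to 97377216, minus strand, mm10), and in these XY cells it lies on the chromosome that Xist coats. It read 65.1 and 36.4 CPM without DOX and 56.96 and 38.4 CPM with DOX in FL. In ΔB+C the values were 54.97 and 38.3 CPM, then 72.6 and 49.9 CPM. In ΔA they were 95.2 and 77.3 CPM, then 74.5 and 59.8 CPM. The ranges overlapped in FL and ΔB+C, and in ΔA the lower noDOX library was above the higher DOX library. The log2 fold change of −0.09 ± 0.32 in FL lay above that of 447 of the 463 other X-linked genes tested, and 0.39 ± 0.32 in ΔB+C lay above that of 455. In ΔA its −0.36 ± 0.32 lay above that of 117 of them. With the block Eda2r rose in ΔB+C (0.39 ± 0.11, adjusted p = 0.0291), and without the low-input library the value was 0.41 ± 0.15 (adjusted p = 0.116). Its ligand gene Eda, also X-linked, read at most 2.53 CPM in any library and had blocked log2 fold changes of −1.66 ± 0.31 in FL (adjusted p = 0.00562), −1.30 ± 0.32 in ΔB+C (adjusted p = 0.0141) and −1.28 ± 0.32 in ΔA (adjusted p = 0.498). Its blocked value in ΔB+C without the low-input library was −0.83 ± 0.32 (adjusted p = 0.129). Eda was named after its values were seen. The other receptor gene of the ectodysplasin list, Edar, and the adaptor gene Edaradd did not pass the filter on low counts.

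**Figure D3:**
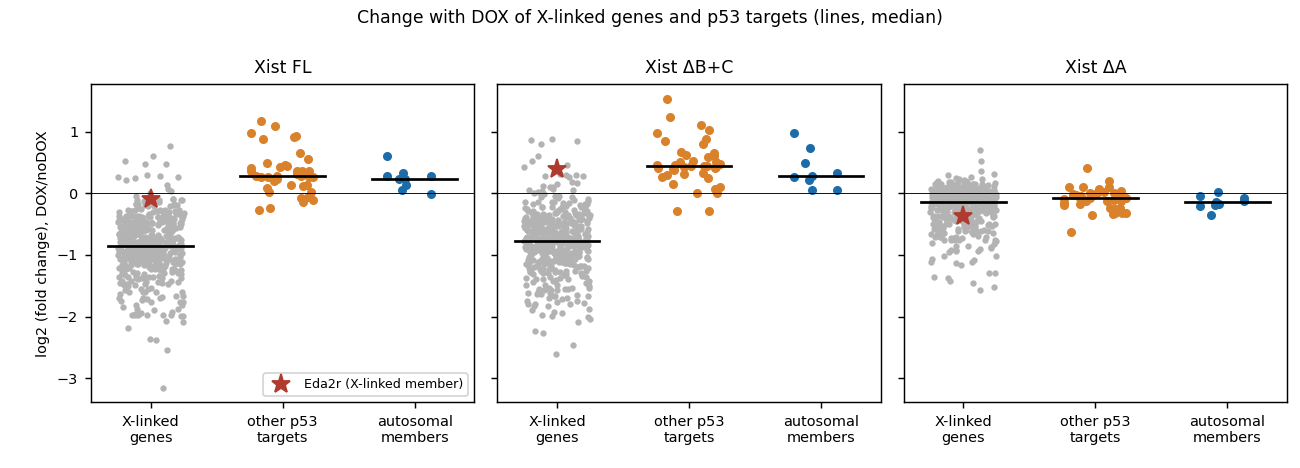
Log2 fold change with DOX over noDOX (vertical axis) of X-linked genes, of the other listed p53 targets and of the 9 autosomal members, 1 point per gene with the median as a line, in the 3 lines. The star is Eda2r, at −0.09 in FL and 0.39 in ΔB+C, where the medians of X-linked genes were −0.85 and −0.78.

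With the block, each library of ΔB+C was left out in turn, so that each fit had 1 library in 1 group. The share of all tested genes called was not set beside each of these counts. They show only how far the calls rest on single libraries. Of the 6 calls with all libraries, 1 was left without DOX replicate 2, the low-input library, and 1 without noDOX replicate 2. Without noDOX replicate 1 there were 3 calls, and without DOX replicate 1 there were 7. Eda2r passed in 0 of the 4 fits, Cdkn1a and Perp in 1, Trp53inp1 and Zmat3 in 2, and Mdm2 in 4. The log2 fold changes over these fits were 0.38 to 0.41 for Eda2r, 0.43 to 0.62 for Trp53inp1 and 0.65 to 0.87 for Perp. They were 0.21 to 0.47 for Cdkn1a and 0.22 to 0.36 for Zmat3. Bbc3 and Phlda3, not called with all libraries, each passed in 1 of the 4. In FL between 1 and 2 members were called in these fits, with Trp53inp1 (adjusted p = 0.0125) and Perp (adjusted p = 0.00526) each past the threshold in 1. No member was called in ΔA in any of the 4 fits.

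Within pairs of the same replicate number, 7 of 10 members were higher with DOX in both pairs of FL, and 7 of 10 in both pairs of ΔB+C. In ΔA, 1 member, Bax, was higher and 8 were lower in both pairs. Over all tested genes 38.0% in FL, 36.2% in ΔB+C and 32.4% in ΔA were higher in both pairs, and 33.2% were lower in both in ΔA. These counts carry no test, since the members share libraries.

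The difference between the responses of 2 lines was tested directly. In the fit of group means no member passed for FL minus ΔA, ΔB+C minus ΔA or ΔB+C minus FL, where 0%, 0.205% and 0% of all tested genes were called. At an unadjusted p under 0.05, 0, 1 and 0 members had a larger response in the first line, beside 414, 701 and 43 of all tested genes. No member had a smaller response there at that threshold, and DESeq2 called 0 in each. With the block, the response of Mdm2 was larger in FL than in ΔA by 0.83 ± 0.15 on the log2 scale (adjusted p = 0.0154), in a comparison that called 3.31% of all genes. That call was lost when FL noDOX replicate 2, FL DOX replicate 2, ΔA noDOX replicate 1 or ΔA DOX replicate 1 was left out. In ΔB+C minus ΔA, 6 members passed, all with a larger response in ΔB+C, where 9.32% of all genes passed and 4.23% did so in that direction. The difference was 1.18 ± 0.15 for Mdm2 (adjusted p = 0.0015), 0.88 ± 0.16 for Trp53inp1 (adjusted p = 0.00923) and 0.89 ± 0.23 for Perp (adjusted p = 0.0409). It was 0.76 ± 0.16 for Eda2r (adjusted p = 0.0159), 0.47 ± 0.11 for Cdkn1a (adjusted p = 0.0252) and 0.45 ± 0.11 for Zmat3 (adjusted p = 0.0262). Without the low-input library, in a fit with 1 library in the ΔB+C DOX group, the difference was 1.12 for Mdm2 and 0.83 for Trp53inp1. The calls of the other members were lost in that fit. Without noDOX replicate 2 of ΔB+C 1 member passed, without DOX replicate 1 or noDOX replicate 2 of ΔA 2, and without noDOX replicate 1 of ΔA 3. The 2 comparisons share the ΔA libraries. Between ΔB+C and FL the blocked fit called no member and 0% of all genes. There the difference for Mdm2 was 0.35 ± 0.15 and that for Cdkn1a 0.35 ± 0.11 (both adjusted p = 0.999), values at which a difference of responses is not shown and is not shown to be absent.

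Without DOX, some members differed between lines in the fit with the block. In the fit of group means 0 members passed for ΔA against FL (9.84% of all genes called), 0 for ΔB+C against FL (0.0227%) and 0 for ΔB+C against ΔA (6.69%). At an unadjusted p under 0.05, 2, 1 and 1 members were higher, beside 1662, 383 and 1590 of all tested genes. At that threshold 0, 0 and 2 members were lower, beside 1754, 388 and 1394 of all tested genes. DESeq2 called 1, 0 and 0 members. With the block the fits called 33.4%, 0.993% and 27.9% of all genes and 5, 0 and 4 members. Eda2r was higher in ΔA than in FL by 0.81 ± 0.11 on the log2 scale (adjusted p = 0.000375), as were Zmat3 by 0.60 ± 0.08 (adjusted p = 0.000207) and Trp53inp1 by 0.41 ± 0.11 (adjusted p = 0.0146). Perp was lower there, at −0.59 ± 0.16 (adjusted p = 0.0213), and so was Cdkn1a, at −0.25 ± 0.08 (adjusted p = 0.0280). ΔB+C against ΔA gave −0.91 ± 0.11 for Eda2r, −0.51 ± 0.08 for Zmat3, −0.40 ± 0.11 for Trp53inp1 and 0.76 ± 0.16 for Perp. The 5 of 10 and 4 of 10 members stand beside backgrounds of 33.4% and 27.9%. FL and ΔB+C, of which the second was made from the first, gave no called member.

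The replicate number went with the levels of most members. In the term for the replicate number, fitted beside the 6 groups, 9 of 10 members were lower in replicate 2, and 46.3% of all tested genes passed, with 23.5% of all tested genes lower. The log2 difference was −0.73 ± 0.09 for Perp (adjusted p = 0.00036), −0.56 ± 0.05 for Cdkn1a (adjusted p = 1.9e-05) and −0.51 ± 0.06 for Eda2r (adjusted p = 0.000179), each lower in 6 of 6 groups. For Trp53inp1, Ccng1, Mdm2, Phlda3, Bbc3 and Zmat3 it lay between −0.46 and −0.26. Bax was the exception, at 0.02 ± 0.04 (adjusted p = 0.794). Trp53 itself went the other way, with 0.41 ± 0.07 (adjusted p = 0.000718) and higher levels in replicate 2 in 6 of 6 groups, for example 344 in replicate 1 against 487 CPM in replicate 2 in ΔA without DOX and 423 against 639.5 CPM in ΔB+C with DOX. The 6 ES cell markers, of which none had a mean of 0, summed to between 2210 and 2890 CPM in replicate 1 and between 2720 and 3860 CPM in replicate 2. The 6 fibroblast markers summed to between 14.1 and 54.7 CPM in replicate 1 and between 11.4 and 42.0 CPM in replicate 2, with Postn near 0 at a mean of 0.0581 CPM and Col1a1 the highest at 15.7 CPM. The 6 primitive endoderm markers summed to between 25.1 and 53.7 CPM and between 21 and 40.7 CPM, and the 6 early differentiation markers to between 1000 and 1780 CPM and between 973 and 1700 CPM. Their part in the difference between replicate numbers was not tested. What a replicate number stands for beyond a biological duplicate is not given in the sources used here.

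**Figure D4:**
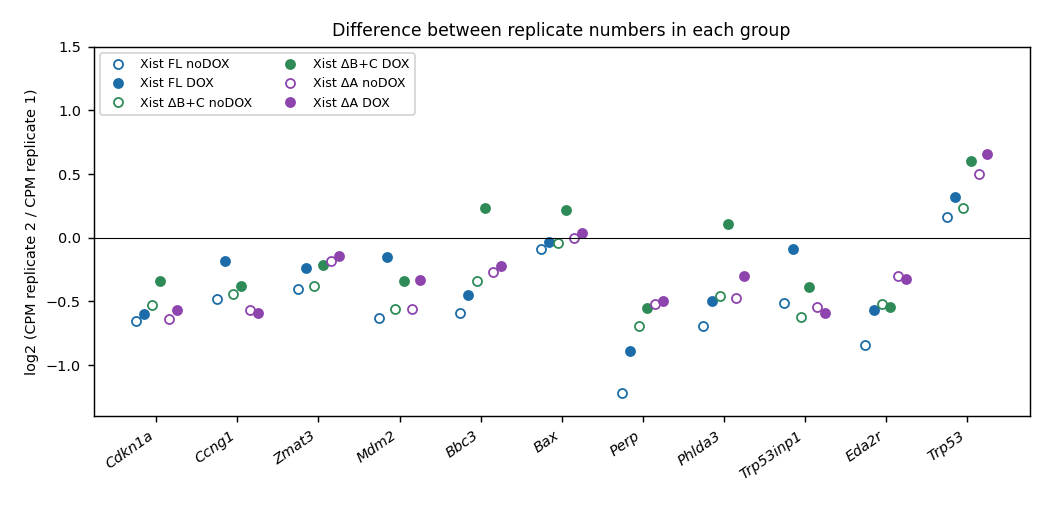
Log2 ratio of the CPM in replicate 2 to that in replicate 1 (vertical axis) for each member and for Trp53, 1 point per group (colour, line; open, noDOX; filled, DOX). Points of Cdkn1a lie between −0.65 and −0.34, those of Trp53 between 0.16 and 0.66, and the low-input library gives the points above 0 for Bbc3 and Phlda3.

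Trp53 transcript levels did not pass with DOX in any line in either fit. They were 396 and 442 CPM, then 454 and 567 CPM in FL, with a blocked log2 fold change of 0.28 ± 0.11 (adjusted p = 0.132). In ΔB+C the change was 0.24 ± 0.11 (adjusted p = 0.154), or 0.13 ± 0.14 without the low-input library, and in ΔA 0.01 ± 0.11 (adjusted p = 0.995). The protein, whose stability sets most of its activity, was not measured here.

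A list of 40 other p53 targets was set beside the members, and all 40 passed the filter on low counts. Without the block 1 of the 40 was higher in FL, 3 in ΔB+C and 0 in ΔA, beside 19, 107 and 1 of all 13191 tested genes. With the block 20, 27 and 0 were higher and none lower, against 5.72% and 9.89% of all tested genes that were higher in the first 2 lines. The list was chosen with earlier results of these data known, so this comparison is a description and not a test. Fewer of the 40 passed in ΔB+C without the low-input library, in a fit with 1 library in the DOX group that also called fewer of all tested genes. With all libraries the medians of the 40 were 0.29, 0.45 and −0.07. In both pairs 31, 35 and 7 of the 40 were higher, beside 38.0%, 36.2% and 32.4% of all tested genes. In ΔA 20 of the 40 were lower in both pairs, beside 33.2% of all tested genes. Pltp, which encodes a phospholipid transfer protein, was called in both lines without the block. It read 10.5 and 9.79 CPM, then 21 and 24.9 CPM in FL (log2 fold change 1.17 ± 0.22, adjusted p = 0.0430), and 13.6 and 10.7 CPM, then 32.2 and 38.7 CPM in ΔB+C (1.54 ± 0.22, adjusted p = 0.0119). In ΔA its change was −0.02 ± 0.22. Ephx1, the microsomal epoxide hydrolase gene, had 9.59 and 10.7 CPM, then 20.0 and 28.2 CPM in ΔB+C (1.25 ± 0.22, adjusted p = 0.0244), and 0.88 ± 0.22 in FL (adjusted p = 0.116). With the block Ephx1 also passed in FL (0.87 ± 0.16, adjusted p = 0.00444). Dcxr, a carbonyl reductase gene, had 38.2 and 35.9 CPM, then 51.5 and 61.5 CPM in ΔB+C (0.61 ± 0.13, adjusted p = 0.0382), and 0.56 ± 0.13 in FL (adjusted p = 0.0779). With the block Dcxr also passed in FL (0.56 ± 0.11, adjusted p = 0.00634). Without the block and without the low-input library, Pltp (1.40 ± 0.26, adjusted p = 0.0825), Ephx1 (0.98 ± 0.23, adjusted p = 0.129) and Dcxr (0.48 ± 0.14, adjusted p = 0.183) did not pass in ΔB+C. With the block and without that library they did, at 1.46 ± 0.23 (adjusted p = 0.00892), 1.07 ± 0.18 (adjusted p = 0.00856) and 0.49 ± 0.12 (adjusted p = 0.0338). In each of these 3 genes both DOX libraries exceeded both noDOX libraries in both lines. The 3 most abundant of the 40 were Rps27l, Gtse1 and Aen, with mean levels of 302, 296 and 252 CPM. Rps27l, a ribosomal protein S27-like gene, read 316 and 302 CPM, then 296 and 210.0 CPM in ΔB+C, with the lowest value in the low-input library, and did not pass in any line in either fit. Gtse1, a gene of G2 and S phase, read 257 and 213 CPM, then 299 and 324 CPM in FL, and 275 and 257 CPM, then 322 and 411 CPM in ΔB+C. With the block Gtse1 rose in FL (0.40 ± 0.12, adjusted p = 0.0461) and in ΔB+C (0.46 ± 0.12, adjusted p = 0.0198), where the value without the low-input library was 0.26 ± 0.11 (adjusted p = 0.167). Aen, an exonuclease gene, had blocked log2 fold changes of 0.13 ± 0.07 in FL and 0.01 ± 0.07 in ΔB+C (adjusted p = 0.252 and 0.962).

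Genes that act on p53 come next. Of 23 tested genes for p53 and its regulators, none passed without the block in FL or ΔA, and Mdm4, which encodes the partner of MDM2 that inhibits p53, passed in ΔB+C. At an unadjusted p under 0.05, 4 were higher and 1 lower in FL, beside 708 and 1072 of all tested genes. In ΔA 0 were higher and 2 lower at that threshold, beside 32 and 117 of all tested genes. DESeq2 called 1 in FL and 0 in ΔA. Mdm4 read 159 and 153 CPM without DOX and 253 and 215 CPM with DOX there (0.59 ± 0.10, adjusted p = 0.0175), and in FL 159 and 143 CPM, then 196 and 184 CPM (0.33 ± 0.10, adjusted p = 0.172). With the block Mdm4 also passed in FL (0.33 ± 0.08, adjusted p = 0.0180), and in ΔB+C it passed without the low-input library, at 0.70 ± 0.09 (adjusted p = 0.0337) without the block and 0.68 ± 0.08 (adjusted p = 0.00132) with it. In ΔA its value was −0.19 ± 0.10. With the block 4 of the 23 rose and 1 fell in FL, 5 rose and 2 fell in ΔB+C, and none passed in ΔA, where 13.9%, 21.9% and 0.0227% of all tested genes passed in either direction. Without the low-input library 3 rose and 1 fell in ΔB+C, where 10.1% of all tested genes passed. The medians were 0.08, 0.05 and −0.04. The most abundant of the list were the ribosomal protein genes Rpl5, Rpl11 and Rpl23, whose products can bind MDM2, at means of 1610, 1150 and 1140 CPM. Rpl11 fell with the block in ΔB+C (−0.28 ± 0.09, adjusted p = 0.0430), from 1140 and 1260 CPM to 1030 and 947 CPM, with the low-input library again the lowest, and without that library the value was −0.20 ± 0.11 (adjusted p = 0.266).

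The BCL2 family and caspase genes, 22 of them tested, gave no call without the block in any line, nor by DESeq2. At an unadjusted p under 0.05 there was 1 higher and 1 lower in each of FL and ΔB+C and none in ΔA. Over all tested genes 708 were higher and 1072 lower in FL, 1069 and 1411 in ΔB+C, and 32 and 117 in ΔA. With the block 2 were higher and 3 lower in FL, 1 higher and 3 lower in ΔB+C, and none passed in ΔA. Fewer were called in ΔB+C without the low-input library, in a fit that also called fewer of all tested genes. With all libraries the shares of all tested genes were the same 13.9%, 21.9% and 0.0227%, and the medians of the list were −0.12, −0.06 and 0.06. The genes chosen from this list after their values were seen are Xiap, an X-linked inhibitor of caspases, and Bmf, a BH3-only member. Xiap fell by 0.79 on the log2 scale in FL (SE 0.12, adjusted p = 0.00202) and Bmf rose by 0.74 ± 0.15 (adjusted p = 0.00913), both with the block. In ΔB+C the blocked values were −0.67 ± 0.12 for Xiap (adjusted p = 0.00345) and 0.86 ± 0.15 for Bmf (adjusted p = 0.00295). Without the low-input library they were −0.46 and 0.81. The median of X-linked genes was −0.85 in FL and −0.78 in ΔB+C. Of 22 tested cell cycle genes repressed through p21 and the DREAM complex, none passed without the block. At an unadjusted p under 0.05, 1 was lower in FL, 2 were lower in ΔB+C and none passed in ΔA. Of all tested genes 1072, 1411 and 117 were lower at that threshold. With the block 1 was higher and 2 lower in FL, 1 higher and 1 lower in ΔB+C, and none passed in ΔA. Fewer were called in ΔB+C without the low-input library, in a fit that also called fewer of all tested genes. With all libraries the shares of all tested genes were again 13.9%, 21.9% and 0.0227%, and the medians of the list were 0.02, 0.02 and 0.02. DESeq2 without the block called 1 of these cell cycle genes in ΔB+C, and it was lower.

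On mm10 the members lie on 8 chromosomes, with Mdm2 (chr10:117688875-117710758, minus strand) and Perp (chr10:18845020-18857073, plus strand) on one, and Bbc3 (chr7:16308393-16318205, plus) and Bax (chr7:45461697-45466898, minus) on another. Cdkn1a is at chr17:29090976-29100727 (plus), Ccng1 at chr11:40748552-40755311 (minus) and Zmat3 at chr3:32334792-32366014 (minus). Phlda3 is at chr1:135766119-135769136 (plus) and Trp53inp1 at chr4:11156431-11174379 (plus). Levels can be set between members only per length. In CPM per kilobase of annotated exon, averaged over the 12 libraries, Bax was the highest at 286, followed by Phlda3 at 136 and Ccng1 at 135. Bbc3 had 53.7, Trp53inp1 47.4, Mdm2 37.4, Perp 30.0 and Cdkn1a 29.8, and the lowest were Zmat3 at 15 and Eda2r at 10.2. Phlda3 and Ccng1 differed by less than the spread between libraries, as did Perp and Cdkn1a. Exon lengths are unions over all annotated transcripts, so a gene with a long, little-used exon gets too low a value.

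The genes whose profile over the 12 libraries was most like that of Cdkn1a were Dusp3, Dpysl2 and Slc19a2, with root-mean-square differences of 0.0788, 0.0957 and 0.101 in centred log2 CPM, against a median of 0.416 over all tested genes. For Eda2r, 9130024F11Rik (0.161) and Sash1 (0.173) were among the nearest, against a median of 0.476. The first of these had a mean of 1.04 CPM, near the filter of 1 CPM, where the pseudocount of 0.5 narrows differences. The 12 libraries share lines, replicate numbers and treatments, and this likeness is a description of their levels.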

How the data were processed

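RNA was sequenced as paired-end reads from 12 libraries, 2 for each of 6 groups. The authors aligned reads to mm10 with TopHat2 2.1.0 and made raw counts per gene with featureCounts 1.5.1, with no strand option given, and deposited the counts per library without pooling. Removal of PCR duplicates is not given in the sources used here. CPM were computed here from the counts and TMM factors of expressed autosomal genes (0.978 to 1.02). The filter kept a gene that reached 1 CPM in 6 or more libraries, and edgeR 4.0.16 was run on those (robust quasi-likelihood test) on 6 group means over the 12 libraries, leaving 6 residual degrees of freedom. A 2nd fit added the replicate number as a block. The numbers come from the sample titles, and differences between replicates correlated across autosomal genes in all 15 pairs of groups (0.399 to 0.82). DESeq2 1.42.0 and limma 3.58.1 were alternatives. The code was tested on simulated data. Ranges are between 2 biological duplicates. Standard errors are those of the fitted log2 fold change, from a variance estimated over all libraries of the fit with information from all genes. They are not the scatter of 2 duplicates. No interval or floor was needed since no member had under 846 counts in any library.

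Positions are from GENCODE on mm10, and promoter sequences from RefSeq on GRCm38.p6. The members and lists were chosen with earlier results of these data known. Named genes were all members, genes of the other lists that passed without the block with DOX (at most 6 a list), the 3 most abundant genes of 2 lists, and the 3 genes nearest in profile to Cdkn1a and to Eda2r. Eda, Xiap, Bmf, Esrrb and Zfp42 were named outside this rule after their values were seen, as were Nanog, Pou5f1, Sox2 and Dppa5a. The same holds for the early differentiation markers T, Mixl1, Eomes, Otx2 and Fgf5. For 1 gene that the rule names, no result is given here. Cop1 was matched to its older symbol Rfwd2.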

Additional observations from a re-analysis of the deposited data

Results flagged for a closer look

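The response to DOX differed between lines in 7 tests of the difference itself, all in the fit with the replicate block. Between FL and ΔA, Mdm2 differed by 0.83 ± 0.15 on the log2 scale (adjusted p = 0.0154), and without the block by 0.81 (adjusted p = 0.704). This call held in 4 of 8 blocked fits that left out 1 library of the 2 lines, with differences of 0.65 to 0.99.

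Between ΔB+C and ΔA, the differences were 1.18 for Mdm2, 0.88 for Trp53inp1, 0.89 for Perp, 0.76 for Eda2r, 0.47 for Cdkn1a and 0.45 for Zmat3. Without the block the values were 1.18, 0.85, 0.88, 0.76, 0.46 and 0.44, with adjusted p-values of 0.271, 0.455, 0.659, 0.572, 0.770 and 0.527. Leaving out 1 library at a time, the blocked call held in 8 of 8 fits for Mdm2, 7 for Trp53inp1, 4 for Eda2r, 3 for Zmat3, and 1 each for Cdkn1a and Perp. Without the low-input library Mdm2 and Trp53inp1 were left. The replicate block was taken up because same-numbered libraries deviated together, and the tests share the ΔA libraries.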

How the results depend on the processing

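With DOX, between responses or between lines, no member passed without the block under other scalings, filters or limma-voom, and DESeq2 called 1 in ΔB+C (Mdm2) and 1 for ΔA against FL without DOX. For the other p53 targets DESeq2 called 5 in FL and 11 in ΔB+C, for p53 and its regulators 1 and 3, and for the cell cycle genes 1 in ΔB+C. Its calls over all genes are not set beside these counts, so they cannot be read as more or less than its share of all genes. Fits of the compared lines alone, which have fewer libraries, called 0 other p53 targets in FL and in ΔB+C and 0 regulators in ΔB+C. Library totals alone gave a members' median of −0.194 in ΔA and Bax there −0.013, also with the block. Cdkn1a in FL was 0.001 with DESeq2, 0.002 with its size factors and 0.005 with DESeq2 and the block.

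The replicate block called 1 member in FL, 6 in ΔB+C, 1 for the difference FL minus ΔA and 6 for ΔB+C minus ΔA, and 5 and 4 for ΔA against FL and ΔB+C against ΔA without DOX. It called 20 and 27 other p53 targets, 5 and 7 regulators, 5 and 4 BCL2 family and caspase genes and 3 and 2 cell cycle genes in FL and ΔB+C. It changed the call of no other member, and it also changed calls in the other lists between responses and between lines without DOX. Chosen after seeing the data, DESeq2 with the block called 2, 6, 2 and 7 members in the first 4 of these comparisons, limma-voom 1, 6, 1 and 6, and library totals 1, 6, 2 and 7. The shares of all tested genes in these alternative fits are not set beside these counts. With the block and without the low-input library the counts were 1 member in ΔB+C, 2 for ΔB+C minus ΔA and 14 other p53 targets, and Bbc3 (−0.251), Bax (−0.081) and Phlda3 (−0.023) turned below 0 in ΔB+C.

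Leaving out each library without the block, the members' median ranged from −0.027 to 0.451 in FL, 0.094 to 0.562 in ΔB+C and −0.396 to 0.091 in ΔA, and the other p53 targets called from 0 to 0 in FL and 0 to 5 in ΔB+C (regulators 0 to 1). In these fits 1 arm holds 1 replicate number. Log2 fold changes that crossed 0 in FL were Cdkn1a (−0.347 to 0.343), Ccng1 (−0.166 to 0.304), Phlda3 (−0.013 to 0.666), Zmat3 (−0.042 to 0.350), Eda2r (−0.443 to 0.387) and Perp (−0.187 to 1.064). In ΔB+C they were Bbc3 (−0.110 to 0.229) and Bax (−0.069 to 0.154), and in ΔA Cdkn1a (−0.449 to 0.223), Mdm2 (−0.447 to 0.110), Ccng1 (−0.510 to 0.128), Bbc3 (−0.197 to 0.071), Phlda3 (−0.259 to 0.209) and Perp (−0.413 to 0.144). With the block and 1 library left out, members called ranged from 1 to 2 in FL, 1 to 7 in ΔB+C, 0 to 2 for FL minus ΔA and 1 to 6 for ΔB+C minus ΔA, and in the DOX comparisons those that crossed 0 were Cdkn1a (−0.05 to 0.04), Ccng1 (−0.09 to 0.22) and Eda2r (−0.24 to 0.14) in FL, Bbc3 (−0.25 to 0.36), Bax (−0.08 to 0.17) and Phlda3 (−0.02 to 0.57) in ΔB+C and Phlda3 (−0.08 to 0.02) in ΔA. Blocked comparisons without DOX were not refitted with a library left out. The causes were not tested. Counting depth was no limit for the members, with 846 or more counts in every library.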
